A study of Homo sapiens with 8 samples.

Results

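The 38 HOX genes of clusters A to D described here were rows of the count table whose symbol was HOXA, HOXB, HOXC or HOXD followed by a paralog number, out of 35238 symbols in all. Cluster A held 10 of them, cluster B 10, cluster C 9 and cluster D 9. They were measured by bulk RNA sequencing in MP38, a cell line derived from a BAP1-mutant uveal melanoma (UM), the main cancer of the pigmented tissue of the eye, so the values describe a single line. Drug exposure lasted 24 h, at 40 nM for romidepsin and for quisinostat and at 1200 nM for mivebresib. The drugs were given in DMSO, and control wells received 0.1% DMSO alone. Romidepsin, a cyclic depsipeptide, and quisinostat, a hydroxamate, inhibit histone deacetylases (HDAC), the enzymes that take acetyl groups off histones. Mivebresib blocks the bromodomains of BET proteins, which bind acetylated histones. Each of the 4 groups had 2 libraries from separate wells of the same line, so a p-value here measures the spread between wells. The 3 drug groups were all compared with the same 2 control libraries.

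HOX genes encode homeodomain transcription factors that give cells along the body axis their positional identity. They lie in clusters in which low paralog numbers (1 and up) are used in anterior and high ones (up to 13) in posterior structures, an order known as colinearity. Trithorax-group proteins keep a cluster active and Polycomb-group proteins keep it silent, and BAP1, the gene mutated in this line, encodes a deubiquitinase that takes off the histone H2A mark laid down by Polycomb. HOX proteins bind DNA together with TALE homeodomain cofactors of the PBX, MEIS and PKNOX families, and retinoic acid is a known inducer of the anterior end of the clusters.

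On GRCh38, the cluster A genes described here lie within chr7:27100354-27200106 on the minus strand, those of cluster B within chr17:48528526-48729178 on the minus strand, those of cluster C within chr12:53938765-54056030 on the plus strand and those of cluster D within chr2:176092891-176190907 on the plus strand (GENCODE 29). RefSeq start sites gave a window for 20 of the 38 genes, 27 windows in all since some genes have several starts. The 250 bases before the start are shown for 4 of them, chosen because their genes show changes described below. HOXA7 and HOXA13 were higher with both HDAC inhibitors, HOXA11 was lower with every drug, and HOXC4, whose window is also that of HOXC5, was lower with mivebresib. Each is written 5′ to 3′ on the strand of the gene (build GRCh38.p14), with every CG dinucleotide in capitals.
HOXA7, chr7:27156676-27156925, minus strand: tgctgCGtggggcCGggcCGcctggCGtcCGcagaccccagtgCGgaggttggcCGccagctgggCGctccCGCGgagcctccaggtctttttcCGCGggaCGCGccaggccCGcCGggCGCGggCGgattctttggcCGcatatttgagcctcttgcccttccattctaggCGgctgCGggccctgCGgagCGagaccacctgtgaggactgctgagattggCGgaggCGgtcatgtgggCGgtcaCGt
HOXA13, chr7:27200092-27200341, minus strand: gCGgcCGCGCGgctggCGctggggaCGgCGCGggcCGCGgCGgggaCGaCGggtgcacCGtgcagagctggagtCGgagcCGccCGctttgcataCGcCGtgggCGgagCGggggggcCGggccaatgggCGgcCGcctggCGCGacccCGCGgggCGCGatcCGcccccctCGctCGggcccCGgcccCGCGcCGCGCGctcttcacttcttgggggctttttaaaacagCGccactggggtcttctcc
HOXA11, chr7:27185233-27185482, minus strand: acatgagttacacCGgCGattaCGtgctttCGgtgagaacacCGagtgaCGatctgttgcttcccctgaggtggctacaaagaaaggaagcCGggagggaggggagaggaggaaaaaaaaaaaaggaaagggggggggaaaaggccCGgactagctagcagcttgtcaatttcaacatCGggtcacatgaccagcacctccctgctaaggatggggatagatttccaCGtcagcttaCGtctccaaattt
HOXC4, chr12:54016638-54016887, plus strand: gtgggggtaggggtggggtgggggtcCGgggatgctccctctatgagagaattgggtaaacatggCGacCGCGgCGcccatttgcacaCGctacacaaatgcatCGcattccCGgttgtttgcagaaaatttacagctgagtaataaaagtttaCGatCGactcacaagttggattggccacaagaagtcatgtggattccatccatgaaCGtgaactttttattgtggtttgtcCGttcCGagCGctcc
The HOXA13 window held 40 CG dinucleotides, a number reached by 2.16% of the 35116 RefSeq windows of this length. HOXA7 had 28 (reached by 15.9% of windows), HOXC4 14 (44.8%) and HOXA11 11 (50.3%). Over the 27 HOX windows the number ran from 0 to 40 with a median of 19, against a median of 11 over all windows. HOXA3 gave the most windows, and the window of HOXC4 was counted again for HOXC5. Values over the HOX windows therefore lean on these genes. Motifs were searched on both strands. The homeodomain core TAAT was in 20 of the 27 HOX windows and in 47.4% of all windows, the GC box GGGCGG in 13 and in 42.6%, and TATAAA in 5 and in 10.7%. GGGCGG can hold a CG counted above. HOXA7 and HOXA13 had the GC box and no TAAT, whereas HOXA11 and HOXC4 had TAAT and no GC box. Windows of other genes did not all follow this split. HOXD4, also higher with both HDAC inhibitors, had TAAT, no GC box and 4 CG dinucleotides. Of genes raised by quisinostat alone, HOXD11 had both motifs, and HOXD13 had the GC box and no TAAT. A match in these letters is a description and not a bound site.

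Total counts were alike, from 28483235 to 29359024 per library. Libraries of a group differed beyond sampling noise, most of all the control pair, with a chi-square per degree of freedom of 58.15 against 9.521 to 9.785 in the drug groups. Lineage markers fit the label of the line. MITF, the master regulator of melanocytes, had 3396 to 9899 counts and TYRP1, a melanosome enzyme, 84041 to 112687, whereas DCT, another pigment enzyme, was near 0 (0 to 5 counts). Of 35238 symbols, 15085 passed the filter on low counts, among them 25 of the 38 HOX genes. A HOX gene silent or low in control cells could pass only through a drug group in which it was high. HOXB3, HOXB8, HOXC12, HOXD11 and HOXD13 passed through the quisinostat libraries, and HOXA7 and HOXD4 through those of the HDAC inhibitors. Shares, medians and drug comparisons that include such genes are therefore given as descriptions. As the RNA is from whole wells, fewer cells using a gene and less RNA per cell cannot be told apart.

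**Figure D1:**
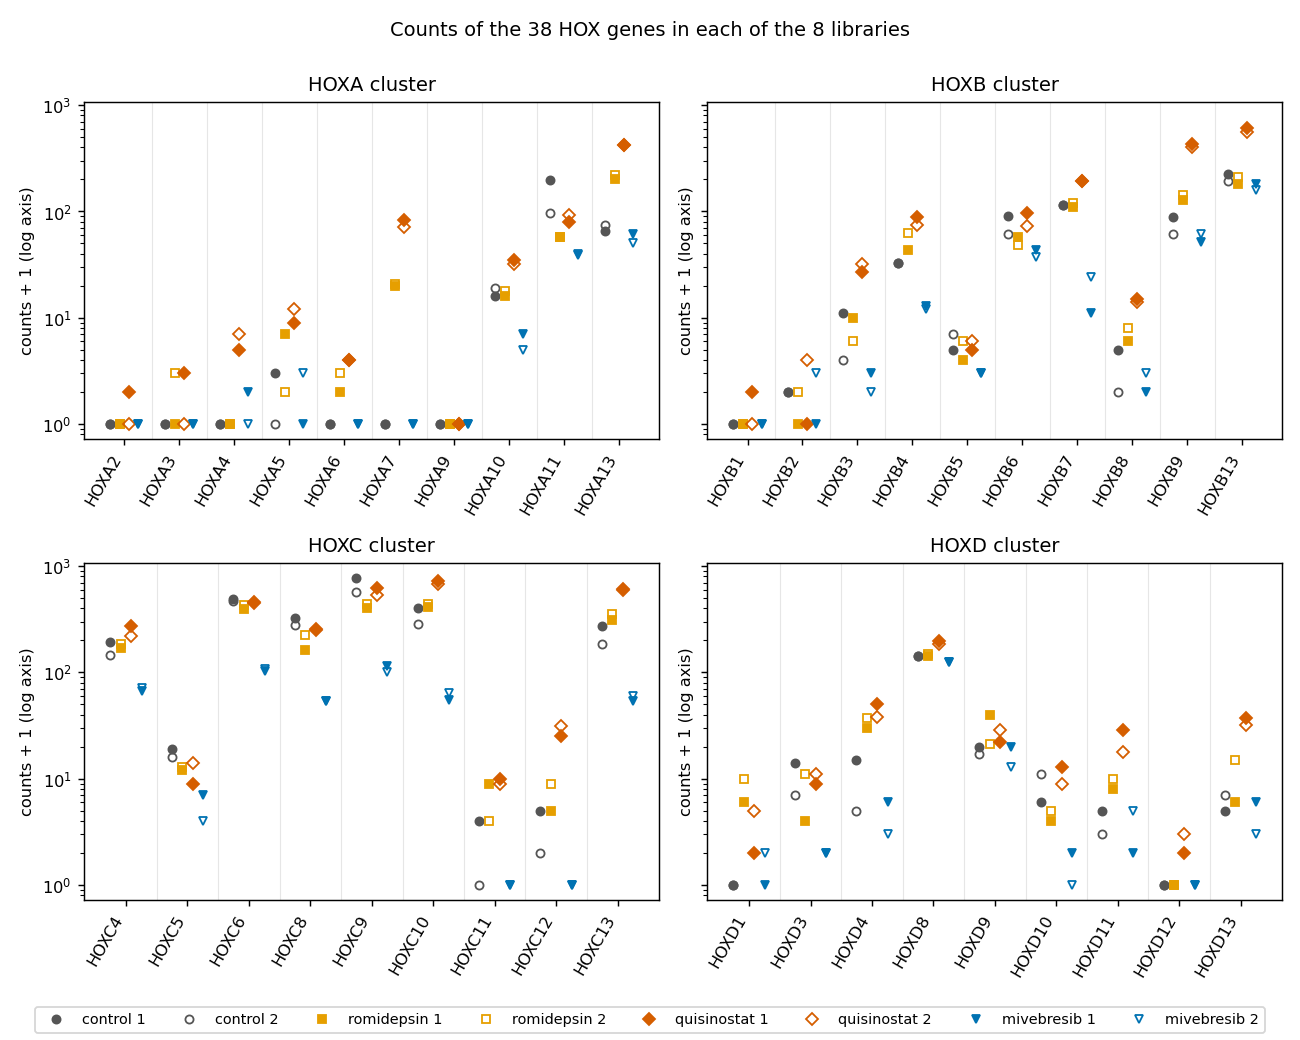
Counts + 1 on a log axis for the 38 HOX genes, 1 panel per cluster, genes in order of paralog number. Each point is 1 of the 8 libraries, filled for replicate 1 and open for replicate 2. Mivebresib points lie lowest across most of cluster C, and HOXA7 is at 0 in the control and mivebresib libraries and at 71 and 83 counts with quisinostat.

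In control MP38 cells the highest HOX levels were those of cluster C genes. Levels between genes were compared per kilobase of exon, as CPM (counts scaled to library size) per kb. HOXC9 was highest at a mean of 14.3 CPM per kb, with 16.2 and 12.4 in the 2 control libraries. HOXC8 followed at 5.71, HOXC10 at 5.27 and HOXC6 at 4.88. The range of HOXC10 (4.42 to 6.12) covered those of HOXC8 and HOXC6, so the order of these 3 is not resolved, but HOXC9 lay above all of them in both libraries. Next came HOXC13 at 3.40, HOXB7 at 2.68, HOXA11 at 2.27, HOXC4 at 2.22, HOXB13 at 2.17 and HOXD8 at 1.94 CPM per kb. HOXD8 was the only cluster D gene above 1 CPM per kb. In all, 22 of the 38 genes had more than 3 counts in both control libraries, and 9 were at 0 in both. The number with more than 3 counts in both libraries was 25 with romidepsin, 30 with quisinostat and 16 with mivebresib.

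Romidepsin changed HOX genes in both directions, at shares close to those of all genes at an adjusted p under 0.05. By the edgeR quasi-likelihood test with Benjamini-Hochberg adjustment over all 15085 genes, 4 of the 25 tested were higher than control at an adjusted p under 0.05 (HOXA7, HOXA13, HOXB9 and HOXD4) and 4 were lower (HOXA11, HOXC6, HOXC8 and HOXC9). Over all tested genes, 15.2% were called higher and 15.8% lower. With the study's added threshold of a log2 fold change beyond 1.5, 3 HOX genes were higher and 0 lower, against 3.77% and 0.312% of all genes. Those 3 were HOXA7, HOXA13 and HOXD4. Of them, HOXA7 and HOXD4 passed the filter on low counts only through the libraries of the HDAC inhibitors. The counts of higher calls are therefore descriptions. The median log2 fold change was 0.044 over the 25 tested HOX genes and -0.012 over all tested genes. The higher calls numbered 2 without the second romidepsin library, and the lower calls 0 without the first and 2 without the second.

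Quisinostat raised more of them. The count was 14 higher (HOXA7, HOXA13, HOXB3, HOXB4, HOXB7, HOXB8, HOXB9, HOXB13, HOXC10, HOXC12, HOXC13, HOXD4, HOXD11 and HOXD13) and 3 lower (HOXA11, HOXC6 and HOXC8), where 28.0% of all tested genes were called higher and 25.1% lower. Beyond a log2 fold change of 1.5, 9 HOX genes were higher and 0 lower, against 11.2% and 1.03% of all genes. The median log2 fold change was 0.85 over the 25 tested HOX genes and -0.0036 over all tested genes. HOXB3, HOXB8, HOXC12, HOXD11 and HOXD13, among the higher calls, passed the filter on low counts only through the quisinostat libraries. HOXA7 and HOXD4 passed it only through those of the HDAC inhibitors. The count of higher calls and this median are therefore descriptions. All 4 genes called higher with romidepsin were also called higher with quisinostat, and 3 of the 4 called lower with romidepsin were called lower with quisinostat. These comparisons share the control libraries. The 3 lower calls became 0 without the first control library or without either quisinostat library.

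Mivebresib lowered HOX genes. It had 13 lower calls (HOXA10, HOXA11, HOXB4, HOXB6, HOXB7, HOXC4, HOXC5, HOXC6, HOXC8, HOXC9, HOXC10, HOXC13 and HOXD3) and 0 higher calls, where 24.1% of all tested genes were called lower and 22.2% higher. No HOX gene was higher even at an unadjusted p under 0.05 in edgeR, and the higher calls were also 0 in DESeq2 and in limma-voom. Beyond a log2 fold change of 1.5, 10 were lower and 0 higher, against 4.36% and 3.96% of all genes. The median log2 fold change was -1.46 over the 25 tested HOX genes and 0.0067 over all tested genes. The HOX median was -1.32 when HOXC12, at 0 with mivebresib and low in control, was set to no change. The lower calls with mivebresib for 4 genes, HOXB4, HOXB7, HOXC10 and HOXC13, were higher calls with quisinostat, and HOXA11, HOXC6 and HOXC8 were lower calls with every drug. HOXD8 and HOXD9 were the tested genes called with no drug.

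**Figure D2:**
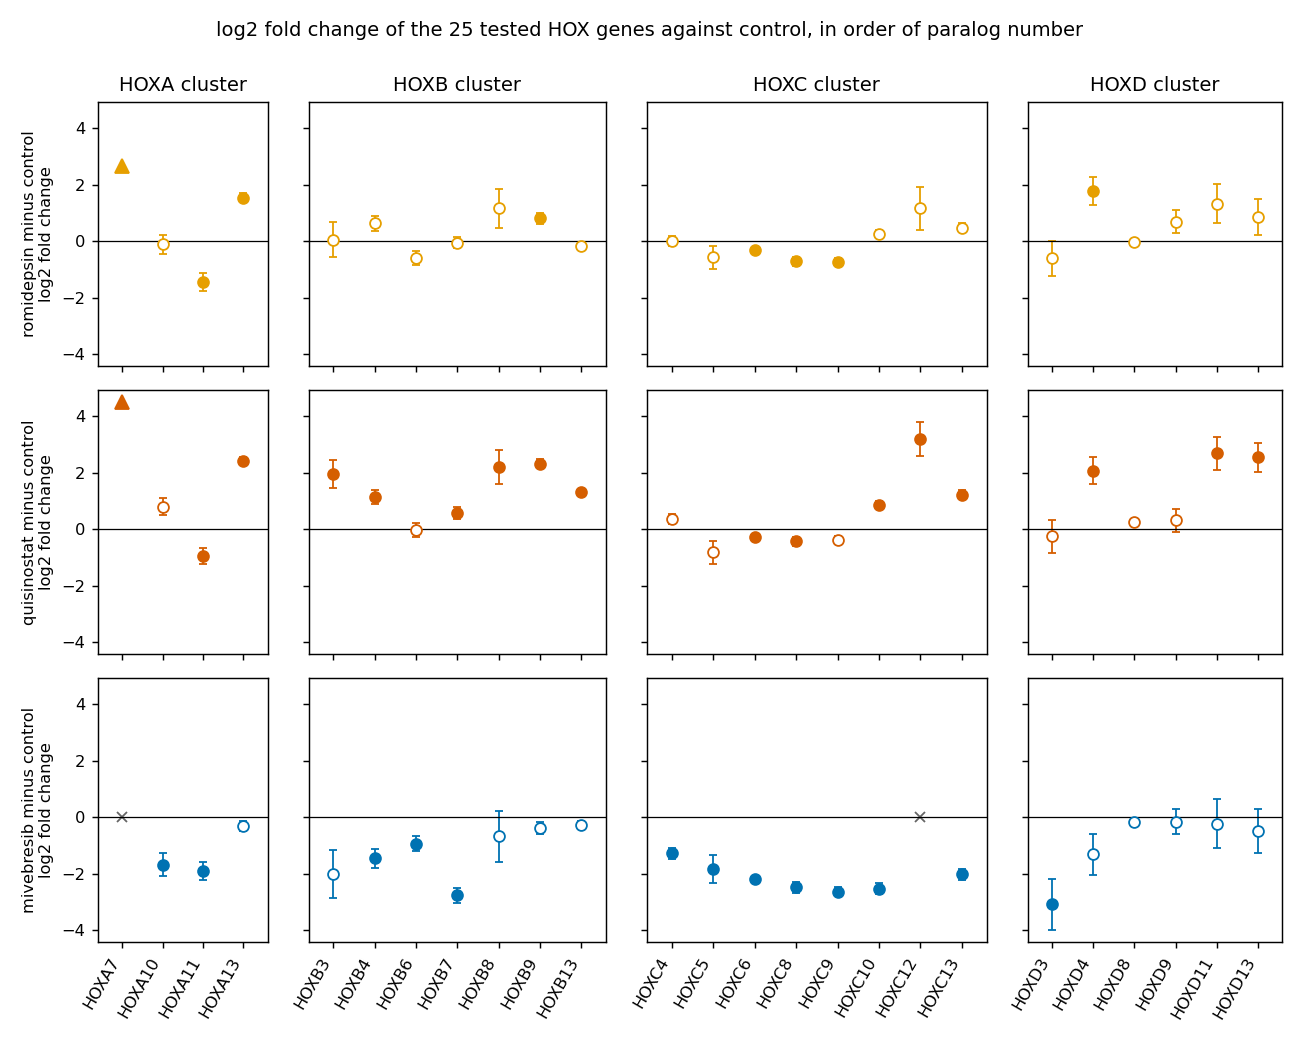
log2 fold change against control (y axis) of the 25 tested HOX genes (x axis, in order of paralog number) for romidepsin, quisinostat and mivebresib, with SE bars. Filled points have an adjusted p under 0.05, triangles mark the lower bound for HOXA7, which was at 0 in control, and crosses mark genes at 0 with mivebresib for which no fold change is given. The 7 filled points of cluster C with mivebresib lie between -2.64 and -1.28.

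In cluster A, the HDAC inhibitors raised a central gene and the most posterior one. HOXA7, a central gene used in the trunk, had 0 counts in both control libraries and both mivebresib libraries. With romidepsin it had 19 and 20 counts, at least 6.21-fold higher than control, and with quisinostat 83 and 71, at least 22.6-fold higher, both against a floor of 3 counts per library. The adjusted p was 0.00179 and 7.48e-05. HOXA13, a gene of the limb tip and hindgut, had 65 and 73 counts in control, 203 and 217 with romidepsin, 417 and 421 with quisinostat, and 60 and 49 with mivebresib. No romidepsin or quisinostat library overlapped control, with log2 fold changes of 1.54 ± 0.15 (SE, n = 2, adjusted p in edgeR = 0.000239) and 2.42 ± 0.14 (adjusted p in edgeR = 5.36e-06). With mivebresib HOXA13 differed by -0.33 ± 0.17 (SE), which did not pass the test (adjusted p = 0.153 in edgeR).

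HOXA11, which like HOXA10 patterns the limb and the reproductive tract, was lower with every drug. It had 198 and 95 counts in control, 56 and 56 with romidepsin, 79 and 92 with quisinostat, and 38 and 39 with mivebresib. Every drug library lay below both control libraries, but the control libraries themselves differed widely. The log2 fold changes were -1.44 ± 0.31, -0.95 ± 0.30 and -1.91 ± 0.33 (SE), with adjusted p in edgeR of 0.00941, 0.0255 and 0.00175. Without the first control library the quisinostat value was -0.36 and no longer called, and the romidepsin value was -0.82. Leaving out either romidepsin library ended the romidepsin call (-1.44 and -1.45), and leaving out either quisinostat library that of quisinostat (-0.83 and -1.08). The mivebresib call held without any single library, at -1.31 without the first control library. Exons of HOXA11 share 31.1% of their bases with the antisense gene HOXA11-AS, and those of HOXA7 62.5% with HOXA-AS3. The library kept strand but the counting setting is not given in the sources used here, so counts of these pairs may be mixed. HOXA10 had 15 and 18 counts in control, 15 and 17 with romidepsin, 34 and 31 with quisinostat, and 6 and 4 with mivebresib. It fell with mivebresib by 1.69 on the log2 scale (SE 0.41, adjusted p in edgeR = 0.0098) and was not called with quisinostat (0.79 ± 0.30 SE, adjusted p = 0.0548). Without the second mivebresib library the fall was not called (-1.42). The remaining 6 genes of the cluster, HOXA2, HOXA3, HOXA4, HOXA5, HOXA6 and HOXA9, never passed 11 counts and were not tested. HOXA9 was at 0 in all 8 libraries, and HOXA5 had 2 and 0 counts in control and 8 and 11 with quisinostat, a ratio of 8.38 (95% exact counting interval 2.02 to 74.2). Such intervals cover counting error only.

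In cluster B, 6 of the 7 tested genes were called higher with quisinostat, where 28.0% of all tested genes were. Of these, HOXB3 and HOXB8 passed the filter on low counts only through the quisinostat libraries. The count is therefore a description. HOXB13, the most posterior and a prostate and hindgut gene, had 225 and 194 counts in control, 180 and 208 with romidepsin, 614 and 554 with quisinostat, and 182 and 158 with mivebresib. Only the quisinostat libraries stood clear of control on the high side, with a log2 fold change of 1.30 ± 0.13 (SE, n = 2, adjusted p in edgeR = 7.34e-05). For romidepsin the value was -0.17 ± 0.14 and for mivebresib -0.29 ± 0.14, neither of which was called. HOXB9, a thoracic gene, had 87 and 60 counts in control, 126 and 142 with romidepsin, 427 and 404 with quisinostat, and 51 and 61 with mivebresib. It rose by 0.80 ± 0.18 (SE) with romidepsin and by 2.32 ± 0.17 with quisinostat on the log2 scale (adjusted p in edgeR = 0.0124 and 1.54e-05). The romidepsin rise of HOXB9 was not called without the second romidepsin library (0.71).

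HOXB7 and HOXB4 moved in opposite directions with quisinostat and mivebresib. HOXB7, a trunk gene, had 115 and 113 counts in control, 110 and 120 with romidepsin, 191 and 193 with quisinostat, and 10 and 23 with mivebresib. The mivebresib log2 fold change of -2.77 ± 0.27 (SE, adjusted p in edgeR = 8.97e-05) was the lowest called in cluster B, and the quisinostat rise was 0.57 ± 0.20 (adjusted p = 0.0386). HOXB4, known for the expansion of blood stem cells, had 32 counts in each control library, 42 and 62 with romidepsin, 87 and 73 with quisinostat, and 12 and 11 with mivebresib. Quisinostat raised it by 1.14 ± 0.25 and mivebresib lowered it by 1.46 on the log2 scale (SE 0.33, adjusted p in edgeR = 0.00524 and 0.00704). HOXB6 had 90 and 61 counts in control, 57 and 47 with romidepsin, 95 and 72 with quisinostat, and 42 and 36 with mivebresib, and it fell with mivebresib by 0.94 (SE 0.26, adjusted p = 0.0182). HOXB3 and HOXB8 were low and passed the filter on low counts only through the quisinostat libraries. HOXB3 had 10 and 3 counts in control, 9 and 5 with romidepsin, 26 and 31 with quisinostat, and 2 and 1 with mivebresib. HOXB8 had 4 and 1 in control, 5 and 7 with romidepsin, 14 and 13 with quisinostat, and 1 and 2 with mivebresib. Both rose with quisinostat alone, by 1.94 ± 0.50 and 2.20 ± 0.59 (SE) on the log2 scale (adjusted p in edgeR = 0.0107 and 0.0135). Some of these calls ended when 1 library was left out. With quisinostat, HOXB7 was not called without any single control, romidepsin or quisinostat library (0.55 to 0.59), HOXB3 without the second control or second quisinostat library (1.34 and 1.79), and HOXB8 without the second control or either quisinostat library (1.56 to 2.24). Without the first control library HOXB3 stood at 2.99 and HOXB8 at 3.40. HOXB6 with mivebresib was not called without the first control library or either mivebresib library (-1.07 to -0.65). HOXB3 shares exonic bases with HOXB4 and HOXB6 on the same strand. HOXB1, HOXB2 and HOXB5 were not tested, with at most 6 counts in a library.

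Cluster C carried most HOX counts and fell furthest with mivebresib. Of its 8 tested genes, 7 were called lower, where 24.1% of all tested genes were. HOXC9, the most abundant, had 770 and 569 counts in control, 399 and 435 with romidepsin, 623 and 539 with quisinostat, and 114 and 99 with mivebresib. The mivebresib libraries lay far below the rest, at a log2 fold change of -2.64 ± 0.17 (SE, n = 2, adjusted p in edgeR = 1.01e-05). Romidepsin lowered HOXC9 by a log2 value of -0.74 ± 0.15 (adjusted p = 0.00618), while with quisinostat the value of -0.38 ± 0.14 was not called (adjusted p = 0.0515). The romidepsin call ended without the first romidepsin library (-0.68). HOXC10 had 403 and 282 counts in control, 409 and 442 with romidepsin, 720 and 672 with quisinostat, and 54 and 63 with mivebresib. It changed in opposite directions, up 0.85 ± 0.15 with quisinostat and down with mivebresib at -2.53 ± 0.19 (SE, adjusted p in edgeR = 0.00159 and 1.96e-05). HOXC13, a hair and nail gene, had 273 and 186 counts in control, 311 and 351 with romidepsin, 602 and 597 with quisinostat, and 53 and 59 with mivebresib. Its log2 fold changes were 1.21 ± 0.16 with quisinostat and -2.02 ± 0.20 with mivebresib (adjusted p in edgeR = 0.000313 and 8.13e-05).

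The central genes of cluster C did not share the rise with quisinostat. HOXC6, a thoracic and mammary gene, had 489 and 472 counts in control, 391 and 426 with romidepsin, 460 and 444 with quisinostat, and 102 and 107 with mivebresib. HOXC8 had 322 and 278 in control, 160 and 223 with romidepsin, 247 and 255 with quisinostat, and 53 and 53 with mivebresib. Every drug library of both genes lay below both control libraries. Under mivebresib their log2 fold changes were -2.19 ± 0.11 and -2.49 ± 0.19 (SE). The quisinostat values were far smaller, -0.27 ± 0.09 and -0.44 ± 0.16, near the threshold at adjusted p of 0.0375 and 0.0454, and neither was called when libraries were scaled by total counts alone. Romidepsin values were -0.30 ± 0.09 for HOXC6 and -0.71 ± 0.16 for HOXC8. With the HDAC inhibitors, the HOXC6 call ended without any single library for romidepsin (-0.37 to -0.24) and without any control, romidepsin or quisinostat library for quisinostat (-0.28 to -0.26). That of HOXC8 ended without the first romidepsin library for romidepsin (-0.49), and for quisinostat without the first control library or any quisinostat or mivebresib library (-0.47 to -0.35). HOXC4 had 193 and 144 counts in control, 168 and 185 with romidepsin, 274 and 217 with quisinostat, and 66 and 71 with mivebresib, and was called with mivebresib alone (-1.28 ± 0.19, adjusted p in edgeR = 0.000832). HOXC5 had 18 and 15 counts in control, 11 and 12 with romidepsin, 8 and 13 with quisinostat, and 6 and 3 with mivebresib. Its mivebresib log2 fold change of -1.83 ± 0.48 (SE, adjusted p in edgeR = 0.0139) was not called without the first control or second mivebresib library (-1.72 and -1.42). HOXC4 and HOXC6 share 484 exonic bases on the same strand. Each also shares 305 with a second annotated entry of the name HOXC5. Counts of HOXC4, HOXC5 and HOXC6 may therefore not be separate. HOXC12 had 4 and 1 counts in control, 4 and 8 with romidepsin, 24 and 30 with quisinostat, and 0 in both mivebresib libraries. It rose with quisinostat by 3.19 ± 0.59 (adjusted p in edgeR = 0.003), a value that went to 4.40 without the first control library and 2.55 without the second. HOXC11 was not tested. It had 3 and 0 counts in control and 9 and 8 with quisinostat, a ratio of 5.0 (95% exact counting interval 1.45 to 26.6).

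Cluster D was low, and its main gene hardly moved. HOXD8, its main gene, had 142 and 141 counts in control, 141 and 148 with romidepsin, 195 and 185 with quisinostat, and 124 and 124 with mivebresib. Quisinostat libraries lay above and mivebresib libraries below control, but by only 0.24 ± 0.12 and -0.18 ± 0.13 (SE) on the log2 scale, and neither was called (adjusted p in edgeR = 0.123 and 0.279). HOXD4 had 14 and 4 counts in control, 29 and 36 with romidepsin, 49 and 37 with quisinostat, and 5 and 2 with mivebresib. It rose by 1.78 ± 0.49 and 2.06 ± 0.48 with the HDAC inhibitors (adjusted p in edgeR = 0.0264 and 0.00647). The romidepsin rise was not called without the second control library or either romidepsin library (1.16 to 1.93), and it was 2.92 without the first control library. The quisinostat rise was called throughout, at 3.18 without the first control library and 1.45 without the second. HOXD4 exons share 80.5% of their bases with an overlapping annotated gene on the same strand, AC009336.2. The posterior genes HOXD11 and HOXD13, the latter a digit gene, rose with quisinostat alone. HOXD11 had 4 and 2 counts in control, 7 and 9 with romidepsin, 28 and 17 with quisinostat, and 1 and 4 with mivebresib. HOXD13 had 4 and 6 in control, 5 and 14 with romidepsin, 36 and 31 with quisinostat, and 5 and 2 with mivebresib. Their rises were 2.68 ± 0.58 and 2.53 ± 0.53 (SE) on the log2 scale (adjusted p in edgeR = 0.00468 and 0.00377). HOXD3 had 13 and 6 counts in control, 3 and 10 with romidepsin, 8 and 10 with quisinostat, and 1 and 1 with mivebresib. It was called lower with mivebresib (adjusted p in edgeR = 0.0217), at a ratio of control over mivebresib of 9.42 (95% exact counting interval 2.27 to 83.4), and its call ended without the first control library or either mivebresib library. HOXD9 ran from 12 to 39 counts and was called with no drug. HOXD1, HOXD10 and HOXD12 were not tested. HOXD1 had 5 and 9 counts with romidepsin and 0 in both control libraries, at least 2.23-fold higher, and 1 and 4 with quisinostat. HOXD10 had 5 and 10 counts in control and 1 and 0 with mivebresib, a ratio of control over mivebresib of 14.9 (95% exact counting interval 2.29 to 626.0).

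Summed over the genes of a cluster, the CPM set the clusters apart. Cluster C totalled 87.7 and 71.1 CPM in control, 63.9 and 71.8 with romidepsin, 93.9 and 88.4 with quisinostat, and 16.4 in each mivebresib library. As ratios of geometric means, mivebresib left 0.207 of the control level in cluster C, 0.439 in cluster A, 0.583 in cluster B and 0.789 in cluster D. By the same measure, quisinostat multiplied the sum by 2.45 in cluster A, 2.39 in cluster B, 1.54 in cluster D and 1.15 in cluster C. Quisinostat and mivebresib libraries overlapped control in no cluster, whereas romidepsin overlapped control in clusters B and C. A sum leans on its main gene. HOXA13 held 59.1% of the cluster A counts over the 8 libraries and HOXD8 65.1% of those of cluster D, against 41.5% for HOXB13 and 23.6% for HOXC9. Without HOXA13, the log2 ratio of romidepsin to control in cluster A turned from 0.36 to -0.74 and that of quisinostat went from 1.29 to 0.28, below clusters B (1.23), C (0.40) and D (1.34) without their own main genes. Without HOXD8, cluster D stood at log2 ratios of 0.85, 1.34 and -0.93 for romidepsin, quisinostat and mivebresib, against 0.26, 0.62 and -0.34 with it. These sums are descriptions and were not tested.

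**Figure D3:**
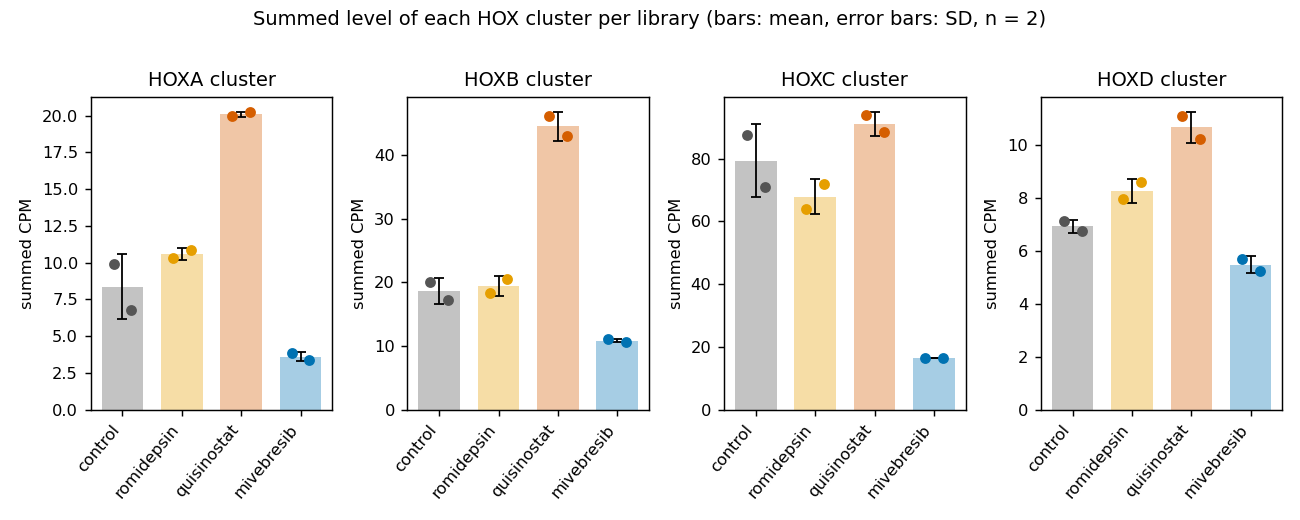
Summed CPM of each HOX cluster (y axis, from 0) in the 4 groups, with bars for the mean, error bars for the SD (n = 2) and points for the libraries. Cluster C drops to 16.4 CPM with mivebresib, and clusters A and B are highest with quisinostat at 20.1 and 44.5 CPM.

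By position, genes were put into an anterior class (paralogs 1 to 3, 7 genes with 2 tested), a central class (4 to 8, 15 genes with 11 tested) and a posterior class (9 to 13, 16 genes with 12 tested). Quisinostat had 1, 5 and 8 higher calls in these classes and 0, 2 and 1 lower calls. Romidepsin had 0, 2 and 2 higher and 0, 2 and 2 lower calls. Mivebresib had 1, 7 and 5 lower calls. Over all tested genes, 28.0% were called higher and 25.1% lower with quisinostat, and 15.2% and 15.8% with romidepsin. With mivebresib 24.1% were called lower. The median log2 fold change with quisinostat was 0.84, 0.36 and 1.25 from anterior to posterior. The anterior value lies between only 2 tested genes, HOXD3 at -0.25 ± 0.58 (SE) and HOXB3 at 1.94 ± 0.50. HOXB3 and some posterior genes passed the filter on low counts through the quisinostat libraries. No direction along the axis is therefore read from these calls and medians. With mivebresib the median was -2.55, -1.32 and -1.09. The last becomes -0.43 when 1 gene, HOXC12, which was at 0 with mivebresib and low in control, is set to no change. Each class held lower calls with mivebresib. Among the posterior genes, HOXA13, HOXB9 and HOXB13 were not called, at -0.33, -0.38 and -0.29. Nor were HOXD9, HOXD11 and HOXD13, at -0.16, -0.24 and -0.49, or HOXC12.

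The HDAC inhibitors were compared directly, at the same dose in nM and the same time. An equal dose is not an equal exposure in effect, since the paper found romidepsin more potent than quisinostat against MP38 viability. The paper also describes romidepsin as specific for class I HDACs. Quisinostat was higher than romidepsin for 11 HOX genes (HOXA7, HOXA10, HOXA13, HOXB3, HOXB7, HOXB9, HOXB13, HOXC10, HOXC12, HOXC13 and HOXD13) and lower for 0, where 21.0% of all tested genes were higher and 14.6% lower. The 0 held at an unadjusted p under 0.05 in edgeR and among the adjusted calls of DESeq2 and limma-voom. Of the 11 genes, HOXB3, HOXC12 and HOXD13 passed the filter on low counts only through the quisinostat libraries. HOXA7 passed it only through those of the HDAC inhibitors. The count of 11 is therefore a description. The best resolved differences were those of HOXB13 (1.47 ± 0.13 SE, adjusted p in edgeR = 0.000151), HOXB9 (1.52 ± 0.16, 0.000336) and HOXA13 (0.88 ± 0.13, 0.00134). Leaving out the first romidepsin library reduced the 11 calls to 4, the second to 6, and either quisinostat library to 5. For HOXC6 the difference was 0.03 with a 95% interval of -0.18 to 0.24, and for HOXA11 it was 0.49 with an interval of -0.25 to 1.24. Those genes were not called, and the intervals do not show that the compounds act alike.

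Mivebresib was given at another dose and has another target, so its values are set beside those of the HDAC inhibitors as measured. It was below romidepsin for 14 HOX genes and above it for 0, where 25.2% of all tested genes were lower and 23.7% higher. Against quisinostat, 23 of the 25 tested HOX genes were lower and 0 higher, where 31.5% of all tested genes were lower and 26.2% higher. The 0 higher calls in these comparisons were also 0 at an unadjusted p under 0.05 in edgeR and among the adjusted calls of DESeq2 and limma-voom. Among the genes lower than with quisinostat, HOXB3, HOXB8, HOXC12, HOXD11 and HOXD13 passed the filter on low counts only through the quisinostat libraries. HOXA7 and HOXD4 passed it only through those of the HDAC inhibitors. The counts of lower calls are therefore descriptions. HOXC5 and HOXD9 were the tested genes not called between mivebresib and quisinostat, at -1.01 ± 0.52 and -0.46 ± 0.43 (SE). HOXC10 and HOXB7 differed most among the well-counted genes, at -3.38 ± 0.18 and -3.34 ± 0.26.

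Partners and regulators of the HOX genes were read from lists chosen by function. Of 8 TALE cofactors, 7 were tested. Romidepsin had 1 higher and 3 lower, quisinostat 3 higher and 3 lower, and mivebresib 0 higher and 3 lower. Over all tested genes, 15.2% were higher and 15.8% lower with romidepsin, 28.0% and 25.1% with quisinostat, and 22.2% and 24.1% with mivebresib. PBX2, a HOX partner, went from 2601 and 2325 counts to 599 and 695 with mivebresib, a log2 fold change of -1.92, and was lower with romidepsin and quisinostat at -0.54 and -0.35. MEIS1 rose with quisinostat by 1.59 and with romidepsin by 0.68, and MEIS2 rose with quisinostat by 0.52 and fell with mivebresib by 1.12. PKNOX2 rose with quisinostat by 1.36 and fell with mivebresib by 1.31.

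Chromatin regulators moved in both directions. Of 15 Trithorax-side genes, romidepsin had 4 higher and 3 lower, quisinostat 2 and 6, and mivebresib 5 and 2, where 15.2% of all tested genes were higher and 15.8% lower with romidepsin, 28.0% and 25.1% with quisinostat, and 22.2% and 24.1% with mivebresib. MLLT3, a reader of acylated histones in elongation complexes, was higher with all 3 drugs, by 1.04, 1.19 and 0.92 (log2), and WDR5, a core subunit of the KMT2 methyltransferases, was lower with romidepsin and quisinostat, at -0.54 and -0.68. AFF1, a scaffold of the elongation complex, rose with romidepsin by 0.89 and with mivebresib by 0.30, and PSIP1, which tethers KMT2 complexes to chromatin, rose with all 3 drugs, by 0.32, 0.55 and 0.72. Of 23 Polycomb-side genes, 22 were tested, of which romidepsin had 4 higher and 6 lower, quisinostat 3 and 11, mivebresib 3 and 8, beside the same shares of all genes. PHF19, which guides the methyltransferase complex PRC2 to its targets, was lower with all 3 drugs, at -1.34, -2.12 and -1.95. EZH2, the catalytic subunit of PRC2, was lower with romidepsin and quisinostat, at -0.37 and -0.70. Its relative EZH1 was lower with both of them, at -0.53 each, and higher with mivebresib by 1.31. PHC1, a subunit of PRC1, was higher with romidepsin by 0.44 and with quisinostat by 1.06 and lower with mivebresib at -1.21. The median log2 fold change of the Polycomb list was -0.25, -0.26 and -0.16, and that of the Trithorax list -0.012, -0.24 and 0.073, for romidepsin, quisinostat and mivebresib.

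The retinoid and axial list had 18 genes, 14 of them tested. Romidepsin had 5 higher and 4 lower, quisinostat 8 and 2, and mivebresib 3 and 6. The shares of all tested genes were 15.2% and 15.8%, 28.0% and 25.1%, and 22.2% and 24.1%. DHRS3, which turns retinal back into retinol, had 952 and 1078 counts in control, 419 and 472 with romidepsin, 111 and 115 with quisinostat, and 44 and 36 with mivebresib, so it was lower with every drug. ALDH1A3, which makes retinoic acid, rose with quisinostat by 0.40 and fell with mivebresib by 1.92 on the log2 scale. The receptor gene RARG was lower with romidepsin at -0.45 and with mivebresib at -2.10. GDF11, a signal that sets the onset of posterior HOX use in the embryo, rose with all 3 drugs, by 0.33, 0.95 and 0.35. Genes that flank the clusters were called in both directions. Of 24 listed, 21 were in the table and 17 tested, and the calls were 2 higher and 4 lower with romidepsin, 6 and 4 with quisinostat, 8 and 3 with mivebresib, beside these shares of all genes. SKAP2, 105.1 kb from HOXA2, went from 8 and 7 counts in control to 141 and 139 with quisinostat and rose with the other drugs too, by 1.71 with romidepsin and 1.38 with mivebresib. CALCOCO1, 211.0 kb from HOXC13, rose with all 3 drugs, by 0.58, 1.24 and 0.44. CBX5 and UBE2Z, near clusters C and B, were lower with romidepsin (-0.64 and -0.40) and quisinostat (-1.13 and -0.73), and UBE2Z was higher with mivebresib by 0.25. Of the noncoding and read-through genes listed for the clusters, PRAC1, PRAC2 and HOXA10-HOXA9 were in the table and none was tested, with at most 8 counts in a library. The others were not analysed here.

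**Figure D4:**
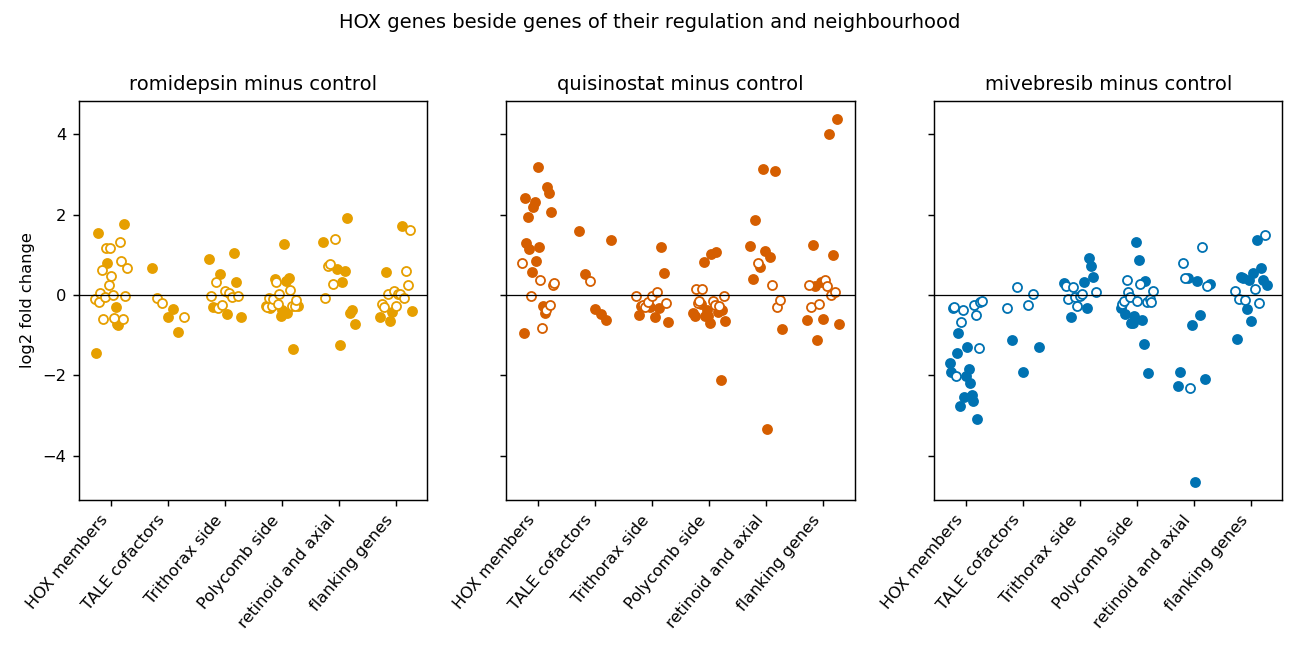
log2 fold change against control (y axis) for single genes of 6 groups (x axis), 1 panel per drug, filled where the adjusted p is under 0.05 and open otherwise. HOX genes run from -3.09 for HOXD3 to -0.16 for HOXD9 with mivebresib, all below 0, while the Trithorax side, the Polycomb side and the flanking genes spread to both sides of 0. Genes at 0 in a compared group are left out of the HOX points.

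Markers of the melanocyte lineage and of other cell types moved with the drugs as well. Of 7 melanocyte markers, 6 were tested, and romidepsin had 0 higher and 1 lower, quisinostat 0 and 3, and mivebresib 0 and 4. TYRP1, the most abundant of them, was called with no drug, at -0.25 with quisinostat and -0.19 with mivebresib. MITF was lower with quisinostat and mivebresib, at -1.39 and -1.47 on the log2 scale, and SOX10, a neural crest factor upstream of it, at -0.92 and -1.93, with -0.39 for romidepsin, also called. Of 15 markers of other cell types, 7 were tested, and romidepsin had 3 higher and 0 lower, quisinostat 5 and 0, mivebresib 0 and 2. For both lists the shares of all tested genes were 15.2% higher and 15.8% lower with romidepsin, 28.0% and 25.1% with quisinostat, and 22.2% and 24.1% with mivebresib. The summed level of the markers of other cell types ran from 78.91 to 99.15 CPM in control and 102.9 to 106.7 with romidepsin. It was 98.86 to 102.5 with quisinostat and 71.47 to 78.58 with mivebresib. Most of this sum was CD68, listed as a leukocyte marker, at a mean of 74.4 CPM in control and called with no drug. The sum therefore says little about the other markers. The endothelial marker CDH5 and the epithelial marker KRT5 were at 0 in all 8 libraries. The neuronal gene SNAP25 had 15 and 15 counts in control and 251 and 244 with quisinostat, and the collagen gene COL1A1 40 and 45 and 327 and 251. Other fibroblast markers did not follow it with quisinostat. PDGFRB had 10 and 18 counts in control and 10 and 5 with quisinostat, and COL1A2 and DCN had at most 5 counts in any library. The part of these shifts in the HOX values was not tested.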

How the data were processed

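Bulk RNA of MP38 cells was sequenced from strand-keeping mRNA libraries, in 4 groups of 2 libraries assigned from the labels. The authors deposited 3 tables made with BioJupies: raw counts per gene symbol, used for every result, log10 values that equal log10(CPM + 1) of the counts (largest difference 4.4e-16), and a quantile-normalized table whose scale is not named, which was not used. The submitters' processing notes name hg38. The aligner, counter and strand setting are not given in the sources used here.

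All 8 libraries were fitted together in edgeR 4.0.16 (R 4.3.3) with TMM scaling, filterByExpr by group and the quasi-likelihood test, adjusted by Benjamini-Hochberg over 15085 genes, after a trial on simulated counts. Calls were made at an adjusted p under 0.05, and also with a log2 fold change beyond 1.5, the study's thresholds. A library with 3 counts or fewer was at its floor. Exon lengths and overlaps came from GENCODE 29.

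One HOX gene and a TALE cofactor are not reported here and enter no count of HOX genes or cofactors. HOX genes called with any drug were described with their counts in every library. Of each other list, up to 4 genes with the smallest adjusted p were named. Cell type markers named in the text were chosen after their values were seen. The HOX genes and lists were chosen with earlier results of these data known. Alternatives were library size alone, upper-quartile factors, other filters, DESeq2 1.42.0, limma-voom (limma 3.58.1), a replicate block, the 4 libraries of a comparison alone, and each library left out.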

Additional observations from a re-analysis of the deposited data

How the results depend on the processing

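Of 1056 recomputed log2 fold changes of the 23 HOX genes called with any drug, 942 kept their direction and their side of the threshold, 73 lost the call, 19 gained it and 22 changed sign. The cause was not tested. All the sign changes were of values that were not called. With romidepsin, HOXB7 turned from -0.05 to 0.020 with library size alone and 0.032 with upper-quartile factors, and HOXC4 turned to -0.0015 with no filter. With quisinostat, HOXB6 turned from -0.03 to 0.17, 0.096 and 0.017 with library size alone, upper-quartile factors and a mean CPM of at least 1. The others came from leaving out 1 library, which gave, with romidepsin, -0.23 to 0.048 for HOXA10, -0.55 to 1.13 for HOXB3, -0.12 to 0.010 for HOXB7, -0.17 to 0.23 for HOXC4, -1.69 to 0.050 for HOXD3 and -0.067 to 1.40 for HOXD13. The ranges were -0.27 to 0.25 for HOXB6 and -0.69 to 0.37 for HOXD3 with quisinostat, and -1.32 to 0.52 for HOXB8, -1.46 to 0.40 for HOXD11 and -1.28 to 0.023 for HOXD13 with mivebresib. Library size alone moved the median of all genes with quisinostat from -0.0036 to 0.196.

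Higher calls with romidepsin went from 4 to 2 in the 4 libraries alone, and lower calls from 4 to 1 in the 4 libraries alone and 0 beyond the fold threshold. Higher calls with quisinostat went from 14 to 7 at a mean CPM of at least 1, where fewer genes were tested, and to 9 beyond the fold threshold. Its 3 lower calls became 0 with library size alone or beyond the fold threshold, and 1 with upper-quartile factors, a mean CPM of at least 1, DESeq2 or the 4 libraries alone. Quisinostat above romidepsin went from 11 to 6 at a mean CPM of at least 1 and 7 in DESeq2, and mivebresib below quisinostat from 23 to 14 at that filter. Leaving out 1 library gave 2 to 6 higher and 0 to 4 lower calls for romidepsin, 11 to 15 and 0 to 3 for quisinostat, 9 to 17 lower for mivebresib, 4 to 11 for quisinostat above romidepsin, 12 to 15 for mivebresib below romidepsin and 19 to 25 below quisinostat. Such a fit assumes that the lone library of a group varies like the others.

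Cluster log2 ratios with quisinostat moved to 1.46 (B), 0.41 (C) and 0.82 (D) with library size alone. Without the member with the most counts, cluster A stood at -0.74, 0.28 and -1.78 for romidepsin, quisinostat and mivebresib, cluster B at 0.20 and -1.25 for romidepsin and mivebresib, cluster C at -0.046, 0.40 and -2.14, and cluster D at 0.85, 1.34 and -0.93. Leaving out 1 library gave ranges, for romidepsin, quisinostat and mivebresib, of 0.092 to 0.64, 1.02 to 1.56 and -1.46 to -0.92 in cluster A, -0.054 to 0.17, 1.15 to 1.37 and -0.89 to -0.67 in cluster B, and -0.37 to -0.070, 0.055 to 0.36 and -2.42 to -2.12 in cluster C.

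Deviations of same-numbered libraries were weakly correlated, with mixed signs (correlations from -0.162 to 0.158), and the main fit did not pair them. With 2 libraries a group, these values cannot tell whether a batch was shared by number. With a replicate block the calls were 4 higher and 3 lower for romidepsin, 14 and 3 for quisinostat, 0 and 13 for mivebresib, and 10, 14 and 23 in the comparisons of drugs. Low counts limit what can be said of the 13 HOX genes that were not tested.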
